A study of Oryza sativa with 4 samples.

Results

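The genes whose identifiers begin with LOC_Os10g31 follow each other in the numbering of rice chromosome 10. They were taken as every identifier with that beginning in either of the deposited tables, which gave 41 genes of 20563 listed identifiers. Of the 41, 22 were listed for both cultivars, 11 for 93-11 only and 8 for Nipponbare only. The series was selected on the measured difference of its genes between the cultivars, so the cultivar differences below describe that choice and do not test it.

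In identifiers of the LOC_Os kind the digits before the letter g name the chromosome and those after it number the gene models along it, so that neighbouring numbers stand for neighbouring genes on the reference genome. Plant genomes hold many arrays of duplicated genes in which neighbours belong to one family and are often active in the same tissue, and they also hold stretches in which unrelated genes stand side by side. Neither the tables nor the RefSeq gene table used here pairs these identifiers with names or functions, so each gene is given by its identifier and no role is stated. No sequence of these genes was used, and whether neighbours are alike enough to share reads was not tested.

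The RNA came from protoplasts, which are cells freed of their walls by enzymes, made from the root tips of seedlings grown for 3 days in Hoagland's nutrient solution. The tips were 5 mm long and came from 800 crown roots. The groups were 93-11, an indica cultivar, and Nipponbare, a japonica cultivar, with 2 poly(A)-selected libraries each, and the labels name no treatment or genetic change. The run names put all 4 libraries on one lane of one flow cell. The labels do not say whether each library had a protoplast preparation of its own, so cultivar and preparation cannot be told apart, and the spread between libraries may be technical.

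Levels are in RPM, a gene's reads scaled by the library total, which lay between 21504426 and 21504715 reads. One read was worth 0.0465 RPM, and 0 reads in a library allow up to 0.140 RPM, the worth of 3 reads. RPM does not account for gene length, and the lengths are not in the files, so levels are compared between libraries and not between genes. In bulk RNA, fewer cells of a type and less RNA per cell cannot be told apart. Of the 7 root tip markers, 5 were listed in both tables, and all 5 were higher in both 93-11 libraries. Their summed level was 7449 and 8000 RPM in 93-11 and 3367 and 3336 RPM in Nipponbare, nearly all of it from the root gene RCc3. Other markers of the list differed by more than the sum. PLT1, named for a transcription factor of the root stem cell region in Arabidopsis, was at 115 and 119 RPM in 93-11 against 0.233 and 0.186 RPM in Nipponbare, and PIN2, an auxin efflux carrier gene, at 21.7 and 21.6 RPM against 1.07 and 1.81 RPM. The stem cell gene QHB was at 0.233 and 0.791 RPM in 93-11 and the stele gene SHR1 at 1.63 and 1.67 RPM. These low levels stood against 0 in Nipponbare for both genes. SCR1, listed for Nipponbare only, was also at 0 there, and CASP1 was listed for 93-11 only. Of 5 leaf markers 2 were listed in both tables, with a summed level of 6.0 and 6.70 RPM in 93-11 and 0 in Nipponbare, and RBCS4 was listed for Nipponbare only at 0.698 and 0.837 RPM. The part of the root markers' difference in the results below was not tested.

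The LOC_Os10g31 genes held far more reads in the 93-11 libraries than in those of Nipponbare. Summed over the 33 genes listed for 93-11 they reached 5632 and 5757 RPM, or 0.563% and 0.576% of the library totals. Summed over the 30 genes listed for Nipponbare they came to 60.6 and 61.1 RPM, or 0.00606% and 0.00611%. Those sums run over different lists. The 19 genes that were in both tables with a mean of at least 1 RPM summed to 3649 and 3782 RPM in 93-11 and to 44.3 RPM in each Nipponbare library.

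All 19 of these genes were called higher in 93-11 by limma on log2(RPM + 1) at a Benjamini-Hochberg adjusted p of 0.05 over the 7269 genes tested, and 0 were called higher in Nipponbare, also at an unadjusted p of 0.05. The background share is large, as 59.0% of all tested genes were called higher in 93-11 and 37.9% higher in Nipponbare. Nothing is read from the count, since the same contrast picked the series. Both 93-11 libraries lay above both Nipponbare libraries for each of the 19, against 59.6% of all tested genes. Their log2 differences, 93-11 minus Nipponbare, ran from 1.05 to 9.21 with a median of 4.33, while the median of all tested genes was 1.44. A difference above 2 was seen in 17 of the 19 and in 38.8% of all tested genes. Only 6.18% of the tested genes lay within 0.5 of equality, so genes of similar level were scarce in the tables as a whole. The median fold of the 19 was 180, with the 4 genes at 0 in Nipponbare set to their lower bound. That median is the fold of LOC_Os10g31630, which had 3 reads in each Nipponbare library. It also rests on a 93-11 value raised 10 times when its decimal point was restored, as described below. Folds here and below are ratios of mean RPM without the added 1. They are therefore larger than the log2(RPM + 1) differences of genes low in a cultivar would give. The other 3 genes in both tables fell under the 1 RPM filter and are described below.

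**Figure D1:**
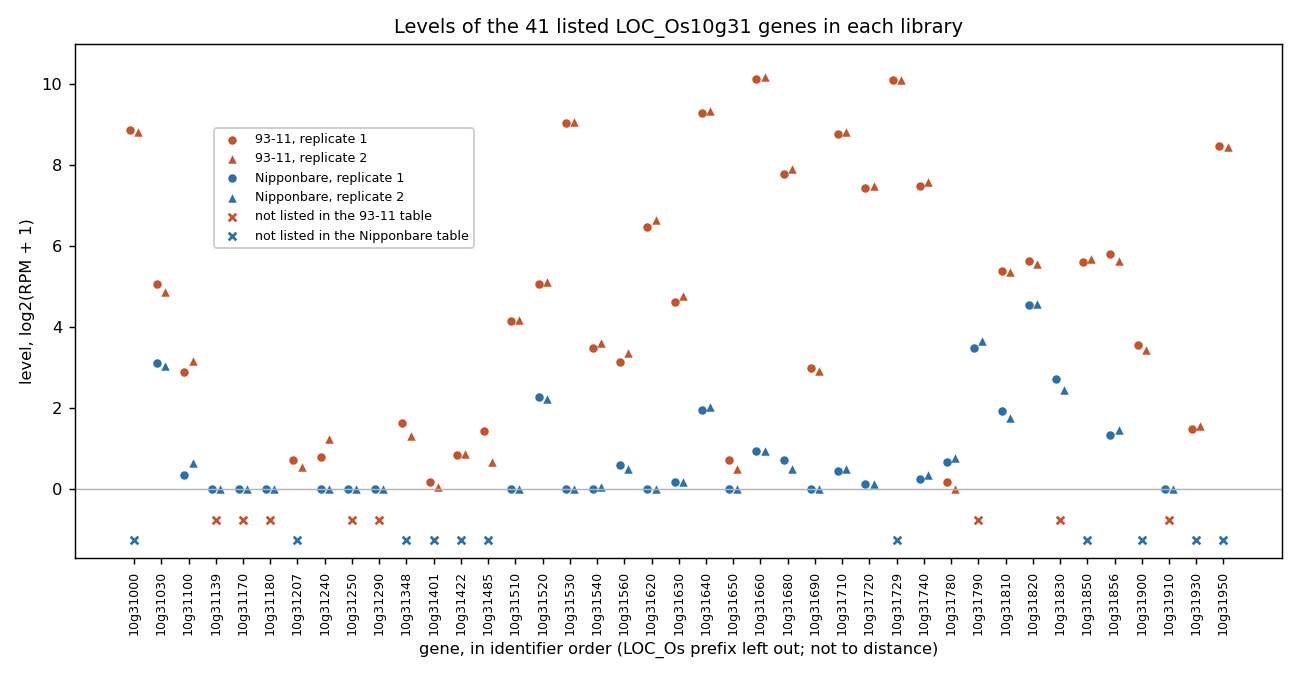
Level of each of the 41 listed LOC_Os10g31 genes on the log2(RPM + 1) scale, in identifier order, with 1 point per library and crosses where a table does not list the gene. The 93-11 points stand far above the Nipponbare points between LOC_Os10g31510 and LOC_Os10g31740 except at LOC_Os10g31650, with means up to 1143 RPM, while no Nipponbare point of the series exceeds 22.7 RPM.

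In identifier order the series fell into 4 stretches, whose bounds were set after the values were seen. The first, from LOC_Os10g31000 to LOC_Os10g31100, holds 3 listed genes. The second, from LOC_Os10g31139 to LOC_Os10g31485, holds 11 genes, at 0 in Nipponbare and at up to 2.09 RPM in 93-11 where listed. The third, from LOC_Os10g31510 to LOC_Os10g31740, holds 16 genes and 81.0% and 81.8% of the summed RPM of the series in the 93-11 libraries. The fourth, from LOC_Os10g31780 to LOC_Os10g31950, holds 11 genes.

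At the start of the series 2 genes could be compared, and their log2 differences of 1.90 and 2.53 were below the series median of 4.33. LOC_Os10g31030 was at 32.7 and 28.3 RPM in the 93-11 libraries and at 7.63 and 7.25 RPM in the Nipponbare libraries, so it was clearly active in both cultivars and 4.10-fold higher in 93-11. LOC_Os10g31100 was at 6.46 and 7.95 RPM in 93-11 and at 0.279 and 0.558 RPM in Nipponbare, 17.2-fold higher in 93-11 on 18 Nipponbare reads. The groups did not overlap for either gene. LOC_Os10g31000, the first identifier of the series, was listed for 93-11 only, at 466 and 454 RPM, and could not be compared.

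Next came a quiet stretch in both tables. Each of the 6 genes listed for Nipponbare between LOC_Os10g31139 and LOC_Os10g31485 had 0 reads in both libraries. The 6 listed for 93-11 lay between 0.0465 and 2.09 RPM. Only LOC_Os10g31240 was in both tables, at 0.744 and 1.35 RPM in 93-11 and 0 RPM in Nipponbare, which makes it at least 7.50-fold higher, and it did not reach the filter. The stretch has therefore no tested gene, and its listed genes stayed at low levels in 93-11. Apart from LOC_Os10g31240 its genes could not be compared, so the stretch is not read as a gap in the difference.

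The third stretch carried the difference. Its 16 listed genes were all in the 93-11 table and 15 of them in the Nipponbare table, where no library exceeded 3.86 RPM. Summed over those 15 genes the level was 3466 and 3610 RPM in 93-11 against 9.63 and 9.58 RPM in Nipponbare. The 14 tested members had log2 differences between 2.71 and 9.21 with a median of 6.90.

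Within it, LOC_Os10g31510 was at 17.0 and 17.3 RPM in 93-11 and without a read in either library of Nipponbare, so it was at least 123-fold higher. Its neighbour LOC_Os10g31520 was at 32.4 and 33.9 RPM against 3.86 and 3.72 RPM, a difference of 8.75-fold. LOC_Os10g31530, the next identifier, was at 526 and 537 RPM in 93-11, yet Nipponbare had 0 reads of it, so it was at least 3807-fold higher. These adjoining identifiers thus ranged from a gene with clear Nipponbare reads to one with none, although all 3 were well above the floor in 93-11.

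LOC_Os10g31540 was at 10.1 and 11.3 RPM in 93-11, while Nipponbare had 1 read over both libraries, in replicate 2. The ratio of 461 has an exact binomial 95% interval of 82.3 to 18248, which covers counting error only, and it was 231 without Nipponbare replicate 1. LOC_Os10g31560 was at 7.81 and 9.35 RPM against 0.512 and 0.419 RPM, 18.5-fold higher in 93-11. The groups stood apart for both genes.

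LOC_Os10g31620 was at 88.4 and 98.9 RPM in 93-11, and no Nipponbare library had a read of it, which puts it at least 671-fold higher. LOC_Os10g31630 was at 23.8 and 26.5 RPM against 0.140 RPM in each Nipponbare library, which is 3 reads in each, a difference of 180-fold. LOC_Os10g31640 was at 629 and 644 RPM against 2.88 and 3.12 RPM, 212-fold higher. With 129 Nipponbare reads, LOC_Os10g31640 was well above the floor in Nipponbare too, at a far lower level. Whether those reads came from the gene itself was not tested. LOC_Os10g31650, between 2 strongly differing neighbours, was nearly silent in both cultivars, at 0.651 and 0.419 RPM in 93-11 and 0 reads in Nipponbare, and did not reach the filter.

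LOC_Os10g31660 was at 1118 and 1168 RPM in 93-11 and 0.930 RPM in each Nipponbare library, or 40 reads over both. That is a fold of 1229 and a log2 difference of 9.21 (SE 0.0479), beside 9.06 for LOC_Os10g31530. With a pseudocount of 0.5 RPM the order of this pair turned, at 9.64 and 10.05, and likewise under quantile normalization, at 9.03 and 9.21. LOC_Os10g31680 was at 220.0 and 239 RPM against 0.651 and 0.419 RPM, 429-fold higher in 93-11. LOC_Os10g31690 reached 7.02 and 6.51 RPM in 93-11 against 0 reads, so it was at least 48.5-fold higher. All 3 had 93-11 libraries that agreed closely beside the distance to Nipponbare.

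At the right end of the stretch LOC_Os10g31710 was at 435 and 450 RPM against 0.372 and 0.419 RPM, 1119-fold higher in 93-11. LOC_Os10g31720 was at 174 and 179 RPM against 0.0930 RPM in each Nipponbare library, a ratio of 1898 that rests on 4 Nipponbare reads. LOC_Os10g31740 was at 177 and 191 RPM against 0.186 and 0.279 RPM, 791-fold higher, on 10 Nipponbare reads. Between LOC_Os10g31720 and LOC_Os10g31740 lies LOC_Os10g31729, listed for 93-11 only at 1095 and 1102 RPM, which has no Nipponbare value to set beside it.

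Over all tested genes, 13 had a log2 difference above 7 toward 93-11, or 0.179%, and 7 of them were LOC_Os10g31 genes, namely LOC_Os10g31530, LOC_Os10g31640, LOC_Os10g31660, LOC_Os10g31680, LOC_Os10g31710, LOC_Os10g31720 and LOC_Os10g31740. The level of 7 was chosen after the values were seen. The other 6 genes carry identifiers of chromosomes 3, 4, 6, 8, 10 and 12 and none is in the neighbouring LOC_Os10g30 or LOC_Os10g32 series. In Nipponbare 13 of the 19 tested members were under 1 RPM, a share of 68.4% against 26.5% of all tested genes, whereas the share with 0 reads, 21.1%, was near the 15.1% of all tested genes. Most of the 19 tested members thus had reads in Nipponbare, from 1 over both libraries for LOC_Os10g31540 to 970 for LOC_Os10g31820. The 13 under 1 RPM there passed the filter through their 93-11 values. Of all 30 members listed for Nipponbare, tested or not, 12 had 0 reads in both libraries. The share over all genes listed for Nipponbare is not given here, so nothing is read from this count.

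**Figure D2:**
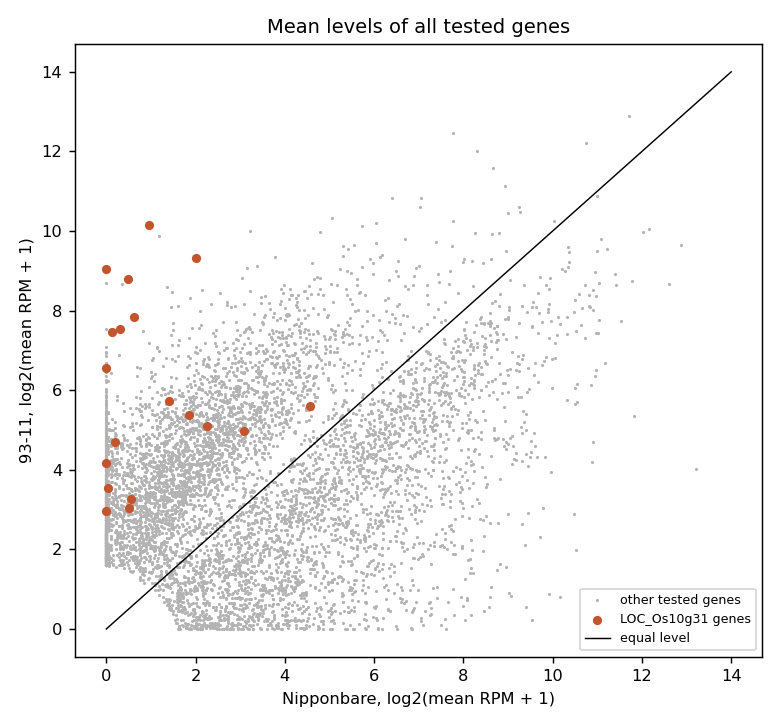
Mean level of every tested gene in 93-11 against Nipponbare, both as log2(mean RPM + 1), with the 19 tested LOC_Os10g31 genes in colour and a line of equal level. All 19 lie above the line, and 7 of them sit in the sparse upper left corner, above 100 RPM in 93-11 and no higher than a mean of 3.00 RPM in the other cultivar.

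Past LOC_Os10g31740 the pattern loosened. LOC_Os10g31780 was near the limit of detection and went the other way, with 3 reads in 93-11, all in replicate 1, and 0.605 and 0.698 RPM in Nipponbare, a ratio of 9.33 with an exact binomial 95% interval of 2.88 to 48.0, and it did not reach the filter. LOC_Os10g31790 was listed for Nipponbare only, at 10.1 and 11.7 RPM. LOC_Os10g31810 was at 40.7 and 40.6 RPM in 93-11 against 2.84 and 2.37 RPM, 15.6-fold higher. Here both directions and both kinds of listing stood side by side.

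Among the tested genes of the series LOC_Os10g31820 had the smallest difference, at 49.0 and 46.5 RPM in 93-11 and 22.4 and 22.7 RPM in Nipponbare. It was 2.12-fold higher in 93-11, and its log2 difference of 1.05 was below the median of all tested genes and became 0.53 under median-ratio scaling. LOC_Os10g31856 was at 55.2 and 49.2 RPM against 1.53 and 1.77 RPM, 31.6-fold higher, and was the last gene of the series that could be compared. Beyond the series' strongest stretch, then, a gene with a moderate difference and one with a large difference still followed each other.

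The remaining genes of the fourth stretch were in 1 table each. LOC_Os10g31850 was at 47.9 and 50.7 RPM, LOC_Os10g31900 at 10.9 and 9.86 RPM, LOC_Os10g31930 at 1.81 and 1.95 RPM and LOC_Os10g31950 at 354 and 352 RPM, all listed for 93-11 only. For Nipponbare only, LOC_Os10g31830 was at 5.63 and 4.46 RPM and LOC_Os10g31910 had 0 reads. The series so ends on a gene that was abundant in 93-11 and cannot be compared.

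The start and the end of the difference were read from consecutive tested genes in identifier order. A run was defined as neighbours with log2 differences of one sign and of at least 1, over the LOC_Os10g30, LOC_Os10g31 and LOC_Os10g32 identifiers. It began at LOC_Os10g30951 and ended at LOC_Os10g31856, and it held 20 genes, of which 19 were the tested LOC_Os10g31 genes, against 54.8% of all tested genes with a difference of at least 1 toward 93-11. LOC_Os10g30951 was at 4.14 and 4.09 RPM in 93-11 against 0.791 and 0.977 RPM in Nipponbare, a log2 difference of 1.44 that equals the median of all tested genes.

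On both sides the direction turned at the next tested gene. Listed genes without a test lie between, such as LOC_Os10g30910 (Nipponbare only) and LOC_Os10g31950 (93-11 only). LOC_Os10g32110 and LOC_Os10g32170, past the right end, were in both tables but under the filter. LOC_Os10g32170 was at 0.837 and 0.791 RPM in 93-11 and at 0 in Nipponbare. LOC_Os10g32110 was near equal, with 8 reads in 93-11 and 6 in Nipponbare. The ends are therefore placed only to the nearest tested genes. LOC_Os10g30880, to the left, was at 0.930 and 1.07 RPM in 93-11 and 10.0 and 9.67 RPM in Nipponbare, a log2 difference of -2.44. LOC_Os10g32509, to the right, was at 0.791 and 0.651 RPM against 6.18 and 6.46 RPM, a log2 difference of -2.09. Directions were mixed further out, since LOC_Os10g30860, LOC_Os10g32540 and LOC_Os10g32550 were again higher in 93-11, by 3.86, 3.26 and 4.49 on the log2 scale. The phosphate transporter gene PT8 (LOC_Os10g30790) had a log2 difference of -2.69 while CESA7 (LOC_Os10g32980), a cellulose synthase gene of secondary walls, had one of 3.76.

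With the limit raised to a log2 difference of 2, the run went from LOC_Os10g31100 to LOC_Os10g31810 and held 16 genes, all of the series. LOC_Os10g31030 on the left (1.90) and LOC_Os10g31820 on the right (1.05) lay just outside it. The same 16-gene run resulted when differences were taken relative to the median of all tested genes. Under quantile normalization the run at a difference of 1 held 17 genes, from LOC_Os10g31030 to LOC_Os10g31810, and under median-ratio scaling 18 genes, from LOC_Os10g30951 to LOC_Os10g31810. With no filter on low values LOC_Os10g31650, which was nearly silent in both cultivars, ended the run after 12 genes. In that setting 2 other runs held genes of the series. Between LOC_Os10g31740 and LOC_Os10g31810 lies LOC_Os10g31780, which went the other way, with 3 reads in 93-11 and 28 in Nipponbare. With no filter it was called higher in Nipponbare. The unbroken length therefore rests on leaving out genes under the filter, among them a gene of the opposite direction.

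**Figure D3:**
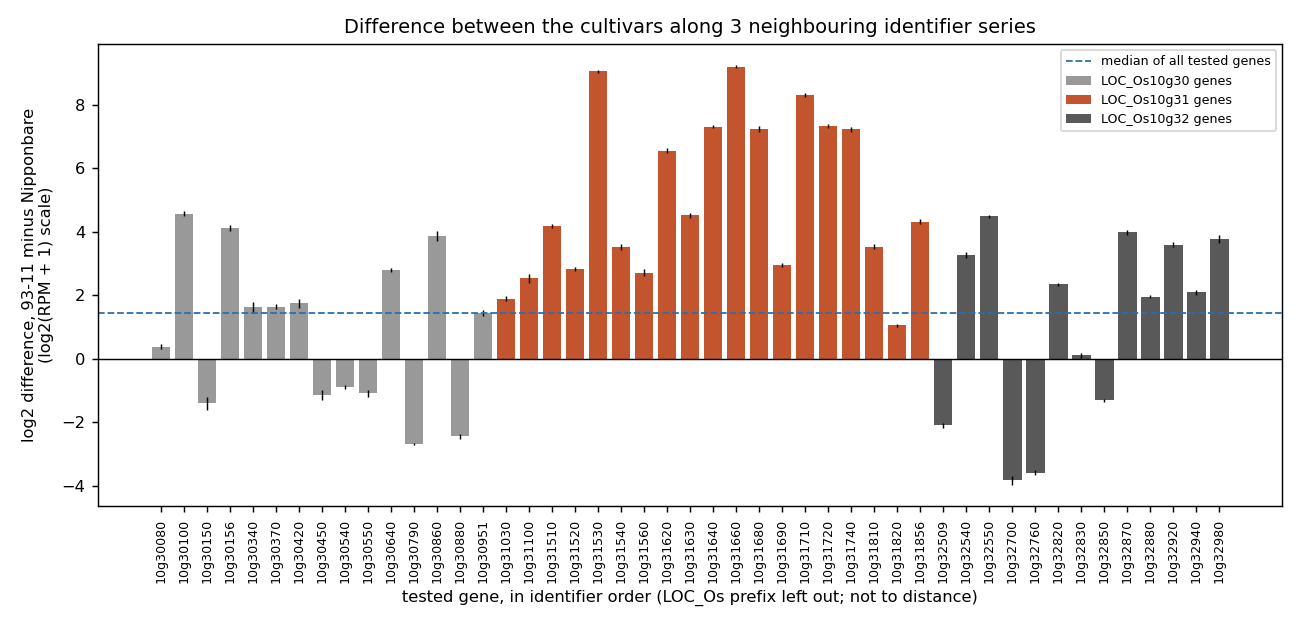
Log2 difference, 93-11 minus Nipponbare on the log2(RPM + 1) scale, of each tested gene of the LOC_Os10g30, LOC_Os10g31 and LOC_Os10g32 identifiers in identifier order, with the standard error of limma's fit as bars and the median of all tested genes as a dashed line. All 19 coloured bars point toward 93-11, between 1.05 and 9.21, while bars of both directions stand on either side.

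The neighbouring series differed from it in make-up. Of the 15 tested LOC_Os10g30 genes 9 were called higher in 93-11 and 6 in Nipponbare, with a median log2 difference of 1.44. Of the 13 tested LOC_Os10g32 genes 8 were called higher in 93-11 and 4 in Nipponbare, with a median of 2.09. Among the 341 identifier series of this kind with at least 10 tested genes, LOC_Os10g31 was the only one with every tested gene called higher in 93-11, and its median was the highest, the medians running from -2.25 to 4.33. The run of 20 was also the longest of 3025 such runs over all chromosomes, with 16 genes in the next longest, which has identifiers of chromosome 12. By sign alone, with no minimum size, 1 other run was as long. With no filter on low values the run of 12 was no longer the longest, as 5 runs including it held at least 12 genes and the longest held 14. These ranks describe how the series was picked and are no test.

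**Figure D4:**
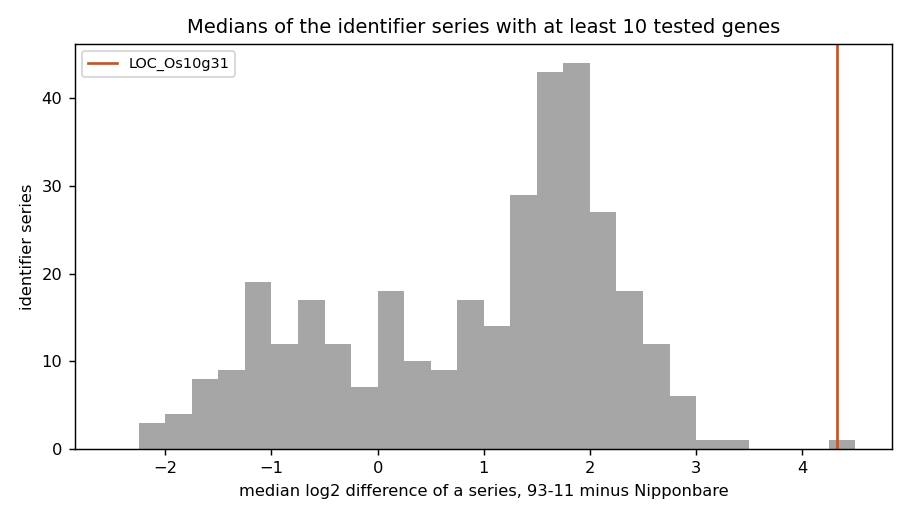
Number of identifier series by the median log2 difference of their tested genes, 93-11 minus Nipponbare, for the 341 series with at least 10 tested genes. The line marks LOC_Os10g31 at 4.33, the highest of them, while the middle of the distribution lies at 1.36.

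What the tables list for the series can be set beside the tables as a whole. Of the 41 genes 53.7% were in both tables, 26.8% in that of 93-11 only and 19.5% in that of Nipponbare only, against 41.7%, 23.9% and 34.4% of all listed identifiers. Of the 8 genes listed for Nipponbare only, 6 had 0 reads, a share of 75% against 23.1% of all identifiers listed for Nipponbare only. In 93-11, 0 of the 33 listed members had 0 reads in both libraries. The share over all genes listed for 93-11 is not given here, so nothing is read from that count. Why a table omits a gene is not stated in the labels, so a missing entry is not read as silence.

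The spread between libraries of a cultivar is a measure that the choice of the series did not use. Among the 21 members with a mean of at least 10 RPM in 93-11 the 2 libraries differed by a median of 4.62%, from 0.230% to 14.3%, against 5.75% over the 5125 genes of that table at this level. LOC_Os10g31030 had the widest gap. In Nipponbare only LOC_Os10g31790 (14.5%) and LOC_Os10g31820 (1.65%) reached this level, against a median of 3.47% over 4518 genes. Part of this closeness is built in, because each damaged value was restored to lie closest to the other library of its cultivar, and LOC_Os10g31520, LOC_Os10g31620 and LOC_Os10g31630 owe their small gap to it. The values are therefore no independent measure of the replicate error.

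The deposited RPM values of 1 or more had lost their decimal point and were restored, which bears on the folds. For 13 of the 19 tested genes both Nipponbare values were below 1 RPM and intact, so that only their 93-11 values could be wrong. For LOC_Os10g31030, LOC_Os10g31520 and LOC_Os10g31820, whose folds are under 10, a Nipponbare value restored 10 times too low would turn the direction. Such an error needs read numbers ending in 0 in both libraries of a cultivar. In LOC_Os10g31520, LOC_Os10g31620 and LOC_Os10g31630 the value of 1 of the 93-11 libraries was raised 10 times to match the other library, and an error there would make it too high. Restored in each library alone, their log2 differences were 1.34, 4.97 and 3.06 in place of 2.83, 6.56 and 4.52, and LOC_Os10g31520 and LOC_Os10g31630 were no longer called by limma.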

How the data were processed

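The members and lists were chosen with earlier results of these data known. Bulk RNA of protoplasts was measured in 2 libraries each of 93-11 and Nipponbare. HISAT2 2.0.4 and HTSeq 0.11.2 appear in the submitters' processing notes, with no genome build or annotation. RPM values, reads scaled by the library total, were deposited as 1 table per cultivar with a column per replicate, per the file headers. Values below 1 RPM were intact. The others, between 61.6% and 76.5% per library, were digits grouped by dots.

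The smallest value of a library gave its total. Each damaged value was read as the whole number of reads (tolerance 1e-06 of a read plus 1e-12 of the value) that, over powers of 10, lay closest to the other library of the cultivar, with the lowest pair taken in a tie. This raised a value for 964 genes in 93-11 and 822 in Nipponbare. Genes whose damaged pair still differed by over 0.4 in log10 (3 and 1, none of them a member) were left out. Listed genes held 42.3% and 43.5% of the totals in 93-11 and 55.6% and 55.7% in Nipponbare.

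limma 3.58.1 (R 4.3.3) with a variance trend was run on log2(RPM + 1). Of 8576 shared genes, the 7269 that averaged 1 RPM or more over the 4 libraries entered the fit. The threshold was a Benjamini-Hochberg adjusted p of 0.05. The scripts were tested on simulated tables. A fold against 0 reads uses the floor of 3 reads per library, and the fold on the log2(RPM + 1) scale understates low genes. Floors and intervals cover counting error only. Every member in both tables is described, and those listed for 1 table with a mean of at least 10 RPM are named, with other identifiers where the text on the listing needs them. Percentiles of members among all genes, planned at first, are not given, since lengths are not in the files. A count model was not run. The deposited values are RPM, and the read numbers used for floors and intervals were derived from the restored values. Alternatives were another pseudocount, no filter, other scalings, each library restored alone, each library left out and the replicate number as a block.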

Additional observations from a re-analysis of the deposited data

How the results depend on the processing

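All 19 tested LOC_Os10g31 genes kept their direction in every alternative run, and all 19 stayed called in each of them except with the decimal point restored in each library alone, where 17 did. There LOC_Os10g31520 (1.34) and LOC_Os10g31630 (3.06) were no longer called, because 1 of their 93-11 values is then 10 times lower by construction. With no filter on low values 1 member, LOC_Os10g31780, was called higher in Nipponbare, against 0 with the filter, 21 were called higher in 93-11, and the run held 12 genes. The median log2 difference of the LOC_Os10g31 genes, 4.33, was 5.14 with a pseudocount of 0.5 RPM, 3.86 with no filter, 3.92 after median-ratio scaling and 3.45 after quantile normalization. That of the LOC_Os10g30 genes, 1.44, was 1.72, 0.82, 1.10 and 0.35 in the same order and 0.38 with each library restored alone, and that of the LOC_Os10g32 genes, 2.09, was 1.60 under median-ratio scaling. Leaving out 1 library at a time left the run at 20 genes and the 19 calls in place. The replicate numbers of the cultivars pair nothing in the labels, and the deviations of same-numbered libraries had a correlation of 0.0194 across 7269 genes. With the replicate number as a block, 4294 genes were called higher in 93-11 and 2776 in Nipponbare, against 4290 and 2757 without it, and 19 members were called higher in 93-11. Depth limits the folds of genes with few Nipponbare reads.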
